A study of Caenorhabditis elegans with 10 samples.

Results

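The SR proteins of *Caenorhabditis elegans* are encoded by the 8 genes *rsp-1* to *rsp-8*, and all 8 were found by name and gene identifier in both expression tables of an RNA-seq study of *sftb-1*, the worm ortholog of the splicing factor gene SF3B1. They were 8 of 46739 genes in the L4 table and of 15355 in the L2 table, with 24 transcripts in each table. They also held 9 entries in the 3 lists of altered splicing events, which are 1 of 134 for K718E, 3 of 381 for *cer39* and 5 of 493 for *cer6*. The libraries came from whole worms of the last (L4) or the second (L2) larval stage. The L4 groups were homozygous *sftb-1*[K718E] animals and wild-type siblings from the same outcrosses, with 2 libraries each. Replicate 1 of K718E carried the allele *cer3* and replicate 2 the independent allele *cer7*, so the replicates were separate strains. Both L4 groups were grown for 41 h at 20 °C, the siblings carried no *sftb-1* change, and polyadenylated RNA was sequenced. The L2 groups, also with 2 libraries each, were wild-type N2, the triple mutant *cer39* [Q552P, R643C, K718E] and the *sftb-1* deletion allele *cer6*, all grown for 23 h at 20 °C and sequenced as total RNA after removal of ribosomal RNA. The *cer6* larvae were non-red homozygotes sorted by flow from a strain in which a red marker is linked to the wild-type *sftb-1* copy. Their mothers were heterozygous, so maternal *sftb-1* product can remain. By the study's methods, some non-red recombinants and some red animals were among the sorted larvae. The N2 larvae were sorted too and the *cer39* larvae were left unsorted, which means that an effect of the sort and one of *cer39* cannot be told apart.

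SR proteins bind exonic enhancers through RNA recognition motifs and, through domains rich in arginine and serine, bring U1 snRNP and U2AF to the neighbouring splice sites. They are phosphorylated by SR protein kinases and act against hnRNP proteins at many exons. In mammals, genes of this family are known for exons and introns that carry early stop codons, whose inclusion sends the transcript to nonsense-mediated decay and keeps the amount of protein in check. *rsp-3* is the ortholog of SRSF1 (SF2/ASF), *rsp-4* of SRSF2 (SC35), *rsp-6* of SRSF7 and *rsp-7* of SREK1, *rsp-1*, *rsp-2* and *rsp-5* are related to SRSF4, SRSF5 and SRSF6, and *rsp-8* resembles the splicing activator TRA2.

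5 of the genes lie on chromosome II of WBcel235. *rsp-2* (11451441 to 11452955, minus strand) and *rsp-1* (11453362 to 11455864, plus strand) are divergent neighbours with 406 bases between them, and *rsp-4* (5387411 to 5388836, minus), *rsp-5* (6490165 to 6491340, plus) and *rsp-7* (10659206 to 10662317, plus) lie elsewhere on that chromosome. *rsp-3* (12686182 to 12687922, minus) and *rsp-8* (11826418 to 11830974, plus) are on chromosome III and *rsp-6* (7789847 to 7791229, minus) is on chromosome IV. The full-length forms encode proteins of 179 residues (*rsp-6*) to 452 residues (*rsp-7*), by the coding sequences of Ensembl release 115. Of the 24 transcripts in each table, 18 at L4 and 20 at L2 matched that annotation by name. The matched ones were 9 full-length forms at each stage, 7 at L4 and 8 at L2 with a shorter coding sequence, and 2 and 3 with none.

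The reads recovered from the normalized values numbered 56996610 to 66563408 per L4 library, over 58941 listed transcripts. They numbered 45313448 to 76420128 per L2 library, over 23421 listed transcripts, and are not the full sequencing depth. All values below are normalized counts (reads divided by the size factor of the library), which were scaled separately for the 2 stages. *sftb-1* itself, the targeted gene, stood at 6152 and 7222 in the wild-type L2 libraries and at 3229 and 3579.5 in *cer6*, a log2 change of -0.97 ± 0.13 (SE, limma adjusted p = 0.00592). In *cer39* it stood at 7333 and 6706, in K718E at 13710.1 and 15045 and in the L4 siblings at 14652 and 13787, which is no check of these point-mutation labels. Markers of 6 tissues were detected in every library. At L4, all 5 markers of body wall muscle and pharynx were higher in K718E, their summed counts being 420701 to 474762 against 186186 to 199238 for body wall muscle and 37324 to 39759 against 16429 to 17315 for pharynx, while the summed 8 germ line markers were 155612 to 166155 against 161610.0 to 170858. At L2, the germ line sum was 13210.4 to 19668 in wild type, 7446 to 9268 in *cer39* and 11862 to 13766 in *cer6*, with 0 of the 8 markers past the threshold in *cer39*, and 1 higher and 3 lower in *cer6*. The summed pharynx markers were 20280.2 to 52377 in wild-type and 12932 to 17804 in *cer6* larvae, and neither gene passed the test. Of the 3 intestine markers, *act-5* was read lower in both *cer6* libraries (21966 and 30409 against 34722 and 49104), *elt-2* (765 and 873 against 647 and 663) and *ges-1* (1859.7 and 1948 against 1617 and 1748) were read higher, and none passed. Of the 3 hypodermis markers, *dpy-7* and *rol-6* differed widely between replicates. In the wild-type L2 libraries they stood at 2576 and 11794 and at 27503 and 11723, with *elt-3* at 1358 and 1755. In *cer39* *dpy-7* stood at 2867 and 6101 and *rol-6* at 12442 and 24112. The source of this spread was not tested. The part of these shifts in the changes below was not tested, and in whole worms fewer cells of a type and less RNA per cell cannot be told apart.

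Read as normalized counts per kb of transcript, *rsp-3* was the most abundant member in all 5 groups. In the L4 siblings it reached 12484 ± 630.3 per kb (mean ± SD, n = 2 here and for all means below). *rsp-6* (7921 ± 517 per kb) came next, followed by *rsp-5* (7128 ± 279), *rsp-2* (6762 ± 420.5), *rsp-1* (6204 ± 461) and *rsp-4* (6044 ± 129), whose neighbours in that order overlapped between libraries. *rsp-8* (4187 ± 58.7 per kb) and *rsp-7* (3576 ± 226 per kb) were the lowest, each apart from the member above. In wild-type L2 larvae the per-kb order was *rsp-3* (4412 ± 202), *rsp-2* (3353 ± 7.98), *rsp-6* (3097 ± 56.5), *rsp-4* (2244 ± 80.0), *rsp-1* (2145 ± 290.3), *rsp-5* (1675 ± 86.7), *rsp-7* (1475 ± 111) and *rsp-8* (961 ± 226), in which only *rsp-4* and *rsp-1* overlapped. In *cer39*, *rsp-7* was the member at rank 4 with 2718 ± 20.9 per kb, and in *cer6* it was at rank 2 with 3826 ± 14.9 per kb, below *rsp-3* alone. With the length of the longest transcript used for all reads of a gene, *rsp-3* stayed at rank 1 in every group and *rsp-7* at ranks 4 and 2 in the mutants, while *rsp-7* was at rank 5 and *rsp-1* at rank 7 in wild-type L2. Transcripts without a match in the annotation took that length in both readings. At L2 they held most *rsp-3* counts (4412 and 4286 per kb in wild type), so its rank there was not checked by this.

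**Figure D1:**
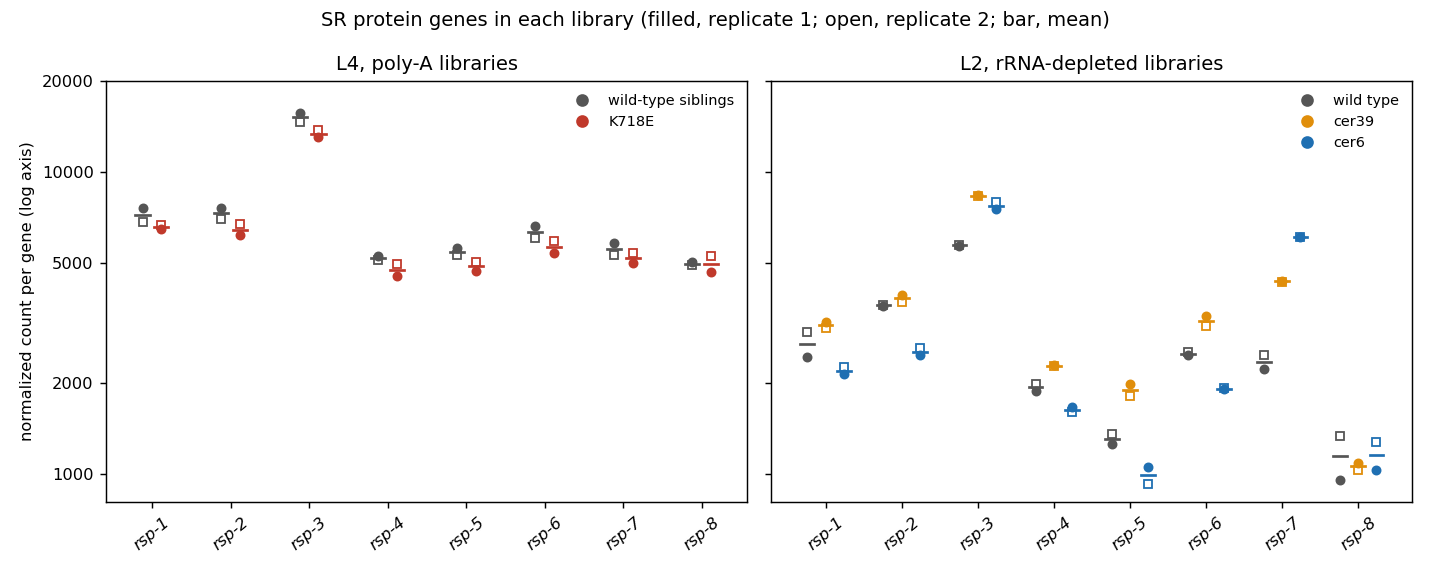
Normalized counts of the 8 SR protein genes (log axis) in each library of the L4 groups (left) and L2 groups (right), with filled circles for replicate 1, open squares for replicate 2 and a bar for the mean of the 2. At L4 the K718E and sibling points lie close together, and at L2 the *rsp-7* points climb from 2231 and 2469.9 in wild type to 6069 and 6076 in *cer6*.

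K718E is the worm counterpart of the SF3B1 change found most often in human cancer, and in these L4 animals 0 of the 8 SR protein genes passed the test. Their log2 changes ran from -0.18 to -0.00 (*rsp-8*, at 0.011 to 0.020 with count tests or TMM factors), with a median of -0.15 against -0.006 over all 15840 genes tested. The 2 libraries of each group did not overlap for 6 of the 8, always with K718E lower. Over all genes tested 28.9% were apart and lower, and 0.398% passed the test, 0.391% as higher and 0.00631% as lower (limma on log2(value + 1), Benjamini-Hochberg adjusted p below 0.05). *rsp-3*, with 13026 and 13753 in K718E and 15715 and 14589 in the siblings, had the lowest adjusted p of the 8 (0.282 by limma, log2 change -0.18 ± 0.09). *rsp-2*, read at 6163 and 6702 against 7610.0 and 6969, had a change of -0.18 ± 0.09 on the log2 scale. *rsp-6* stood at 5388 and 5887 against 6634 and 6056 (-0.17 ± 0.09). *rsp-5* gave 4701 and 5045 in K718E against 5593 and 5295, *rsp-4* 4519 and 4955 against 5268 and 5111, and *rsp-1* 6469.5 and 6681 against 7597 and 6819.8. For *rsp-7* the libraries overlapped, at 5002 and 5388 and 5826 and 5328, and so did those of *rsp-8*, at 4668 and 5279.7 and 5022 and 4929. No member was past an unadjusted p of 0.05, where 20.3% of all genes were, and edgeR and DESeq2 on the recovered reads also called 0. Without replicate 2 of K718E, *rsp-2* (log2 change -0.24, adjusted p = 0.0342) and *rsp-6* (-0.23, adjusted p = 0.0386) passed as lower in limma, a fit in which 17% of all genes did.

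In the triple mutant *cer39*, 2 SR protein genes rose and none fell, against 4.12% higher and 3.04% lower among all 15011 genes tested (7.15% in either direction). *rsp-7*, the SREK1 ortholog, stood at 2231 and 2469.9 in wild type and at 4368 and 4331 in *cer39*. Both mutant libraries were above both wild-type ones, and the level was 1.85 times that of wild type (log2 change 0.89 ± 0.10, limma adjusted p = 0.0186). *rsp-3*, the SRSF1 ortholog, went from 5704 and 5749 to 8375 and 8301, 1.46 times the wild-type level (log2 change 0.54 ± 0.10, limma adjusted p = 0.0356). 5 further members were read higher in both *cer39* libraries without passing the test. *rsp-5* stood at 1985 and 1811 against 1259 and 1358 in wild type (log2 change 0.54 ± 0.12, limma adjusted p = 0.0594). *rsp-6* stood at 3341 and 3085 against 2472 and 2529 (0.36 ± 0.10, adjusted p = 0.085), *rsp-4* at 2291 and 2276 against 1882 and 1992 (0.24 ± 0.10) and *rsp-1* at 3177 and 3049 against 2438 and 2942 (0.22 ± 0.13). *rsp-2* differed least of those with libraries apart, at 3928 and 3697 against 3609 and 3621 (0.08 ± 0.10), and *rsp-8* overlapped, at 1090.4 and 1030.5 against 953 and 1333 (-0.09 ± 0.20). In all, 7 of the 8 were apart and higher, as were 32.6% of all genes, and the median change of the members was 0.30 against 0.005 over all genes. The *rsp-3* call was lost without any 1 of the 6 L2 libraries (adjusted p = 0.0654 to 0.232), and the *rsp-7* call without either *cer39* library (0.152 and 0.166), with the log2 changes at 0.54 to 0.55 and 0.88 to 0.90 in those fits. Without either *cer39* library 0 genes at all were called in this comparison, so these losses are not particular to the members. DESeq2 on the recovered reads called *rsp-5* and *rsp-6* as well (adjusted p = 0.00884 and 0.0288), with 8.69% of all genes called as higher. *rsp-5* was also called as higher by edgeR with TMM scaling (adjusted p = 0.0472) and by limma after TMM factors (adjusted p = 0.0491).

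In the deletion mutant *cer6*, 2 SR protein genes rose and 2 fell, against 13.8% in each direction among all genes tested (27.6% in all). *rsp-7* was again the member that changed most. It stood at 6069 and 6076 against 2231 and 2469.9 in wild type, 2.59 times as high (log2 change 1.37 ± 0.10, limma adjusted p = 0.00193), and this was the only gene call on a member that held under all 16 alternative settings. *rsp-3* stood at 7528 and 7935 against 5704 and 5749, 1.35 times the wild-type level (log2 change 0.43 ± 0.10, limma adjusted p = 0.025). The calls that fell were those of *rsp-2* and *rsp-6*. *rsp-2* went from 3609 and 3621 to 2477 and 2604, 0.703 times the wild-type level (log2 change -0.51 ± 0.10, limma adjusted p = 0.0165). *rsp-6* went from 2472 and 2529 to 1905 and 1934, 0.768 times the wild-type level (log2 change -0.38 ± 0.10, limma adjusted p = 0.0389). *rsp-5*, at 1056 and 929.9 against 1259 and 1358, had a log2 change of -0.40 ± 0.12 and missed the threshold (limma adjusted p = 0.0615). DESeq2 on the recovered reads called *rsp-5* as lower (adjusted p = 0.0432). *rsp-4* was read at 1667 and 1602 against 1882 and 1992 (-0.24 ± 0.10) and *rsp-1* at 2144 and 2259 against 2438 and 2942 (-0.28 ± 0.13), and in both the *cer6* libraries lay below the wild-type ones without passing. *rsp-8*, at 1028 and 1276, overlapped with wild type (0.02 ± 0.20). The libraries of 2 members were apart and higher and those of 5 apart and lower, where 31.1% and 32.7% of all genes were. Leaving out any 1 of the 6 L2 libraries ended the *rsp-3* and *rsp-6* calls (adjusted p = 0.068 to 0.0937 and 0.0755 to 0.130), and the *rsp-2* call was lost without either *cer6* or either *cer39* library (0.051 to 0.0765). The fits without 1 library called 1891 to 3983 genes in this comparison, against 4142 with all 6.

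**Figure D2:**
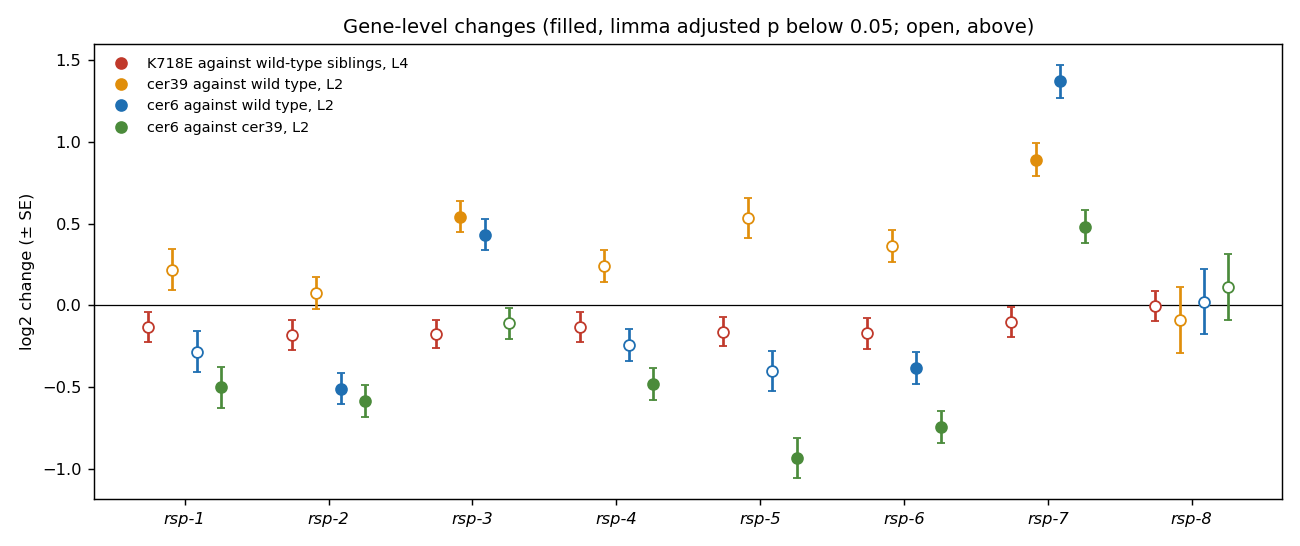
Log2 change of each SR protein gene with its SE from limma, in the 4 comparisons, where filled points are past an adjusted p of 0.05 and open points are not. *rsp-7* and *rsp-3* lie above 0 in both L2 mutants, and *rsp-1*, *rsp-2*, *rsp-4*, *rsp-5* and *rsp-6* lie above 0 in *cer39* and below 0 in *cer6*.

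The 2 L2 mutants were also compared with each other, since each shares the wild-type libraries in the comparisons above and a call in only 1 of them does not show a difference. Here 6 of the 8 members passed, 5 lower and 1 higher in *cer6* than in *cer39*, against 10.5% and 9.11% of all genes (19.6% in all). The members that were lower were *rsp-5*, with 0.523 times the *cer39* level (log2 change -0.94 ± 0.12, limma adjusted p = 0.00962), *rsp-6* (-0.74 ± 0.10, adjusted p = 0.01), *rsp-2* (-0.59 ± 0.10, adjusted p = 0.0166), *rsp-4* (-0.48 ± 0.10, adjusted p = 0.0265) and *rsp-1* (-0.50 ± 0.13, adjusted p = 0.0454). In all 5 genes the wild-type mean lay between the means of the mutants. *rsp-7* was higher in *cer6* (1.40 times, log2 change 0.48 ± 0.10, limma adjusted p = 0.0291), on top of its rise in *cer39*. *rsp-3* (-0.11 ± 0.10, limma adjusted p = 0.462) and *rsp-8* (0.11 ± 0.20, 0.726) did not pass. Each of the 6 calls was lost without either *cer39* library. Without either *cer6* library the calls were lost too, except that *rsp-5* passed without replicate 1. Over all genes these fits called 0 and 126 without a *cer39* library and 536 and 344 without a *cer6* library, against 2946 with all 6. The log2 changes in the fits without a library ran from -1.03 to -0.84 for *rsp-5* and from -0.54 to -0.46 for *rsp-1*. All 6 kept their sign in every setting, and only the *cer39* larvae were unsorted.

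Of the 24 transcripts of the family at L2, the one with the largest log2 change among those called in *cer6* belonged to *rsp-3*. At this stage the reads of the gene were split over 5 transcripts, Y111B2A.18.1 to Y111B2A.18.5, of which the first and second matched the annotation and carry the same coding sequence of 258 residues. The structures of the other 3 were not in the annotation used here. Y111B2A.18.5 stood at 527 and 678 normalized counts in N2, 1542 and 1402 in *cer39* and 2538 and 2753 in *cer6*, with no overlap between any of the groups. The log2 change was 2.14 ± 0.16 in *cer6* (limma adjusted p = 0.00695), 1.30 ± 0.16 in *cer39* (adjusted p = 0.0504) and 0.85 ± 0.16 between the mutants (adjusted p = 0.0475). The call in *cer6* held under all 15 alternatives, and that between the mutants was lost under a replicate block, in edgeR and without any 1 of the *cer39* and *cer6* libraries. Y111B2A.18.4 stood at 165 and 163 in N2, 398 and 445 in *cer39* and 526 and 416 in *cer6*, where it was called (1.51 ± 0.18, limma adjusted p = 0.013) except without either *cer6* library (0.0622 and 0.0512). As a share of all *rsp-3* counts, Y111B2A.18.5 made up 9.25% and 11.8% in N2, 18.4% and 16.9% in *cer39* and 33.7% and 34.7% in *cer6*. The test of this share in *cer6* missed the threshold (limma adjusted p = 0.0678). The other large values differed between replicates. Y111B2A.18.1 was read at 0 and 1597 in N2, 1771 and 0 in *cer39* and 132 and 1239 in *cer6*, and Y111B2A.18.3 at 4965 and 3239, 4598 and 6417 and 4307 and 3482. In every L2 group the replicate with more of the first had less of the second, and the gene-level values of the 2 replicates lay close together. At L4, Y111B2A.18.4 was 5881 and 6079 in K718E against 7819.8 and 7145 in the siblings, a log2 change of -0.32 ± 0.08 that limma did not call (adjusted p = 0.329) and that DESeq2 on the recovered reads called (adjusted p = 0.00897), as lower, with 1.99% of all transcripts. The transcript names may not stand for the same structures in the tables of the 2 stages.

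**Figure D3:**
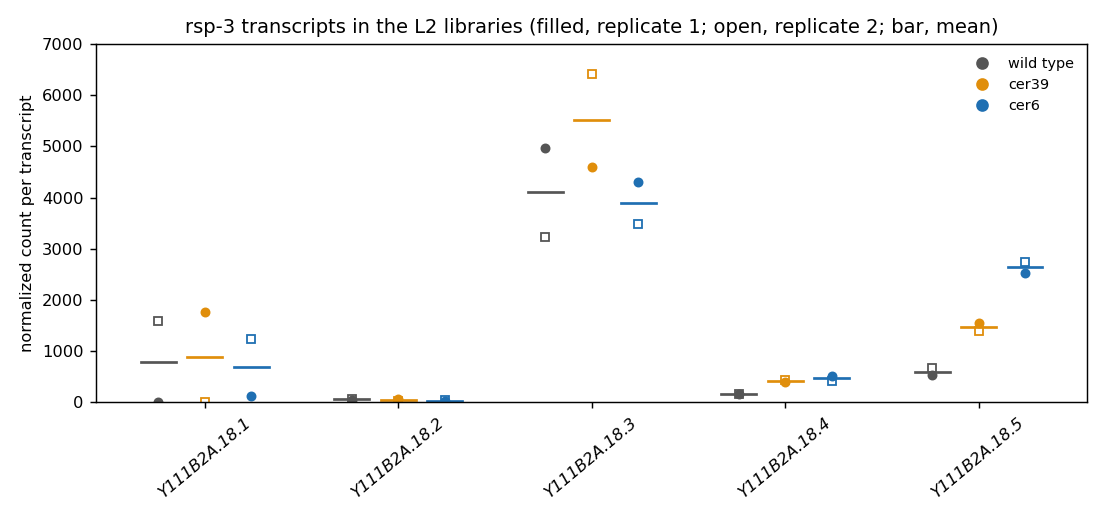
Normalized counts of the 5 *rsp-3* transcripts listed in the 6 L2 libraries, with filled circles for replicate 1, open squares for replicate 2 and a bar for the mean. Y111B2A.18.5 separates the 3 groups, and Y111B2A.18.1 and Y111B2A.18.3 spread widely within each group.

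For 5 members, *rsp-1*, *rsp-4*, *rsp-5*, *rsp-6* and *rsp-7*, matched transcripts code for a shorter product or for none, most of them through an extra exon or a retained intron. *rsp-8* has 1 such form too, C18D11.4b (144 residues in place of 309), which was read at 3.07 in 1 sibling library and at 0 in the other L4 libraries. Transcripts that did not match the annotation are not counted among these forms. In the *rsp-4* form the extra exon is 186 nt long (II, 5388150 to 5388335), and the coding sequence ends after 34 nt of it, giving 126 residues in place of 196. In *rsp-5* the extra exon is 163 nt long (II, 6490720 to 6490882) with 58 coding nt and a product of 166 residues in place of 208, and in *rsp-7* it is 76 nt long (II, 10659787 to 10659862) with 21 coding nt and a product of 137 residues in place of 452. The *rsp-1* forms with the extra exon code for 148 residues in place of 312, and the extra forms of *rsp-6* are annotated without a coding sequence. Together such forms made up a small part of the family at L4. In the siblings they were 10.4% and 10.3% of the counts of *rsp-6*, 7.53% and 8.34% of *rsp-1*, 5.79% and 5.69% of *rsp-4*, 3.92% and 3.41% of *rsp-5* and 2.13% and 2.23% of *rsp-7*. In K718E the *rsp-7* share was 3.81% and 3.69%, the *rsp-1* share 9.84% and 9.63%, the *rsp-6* share 12.1% and 12.5% and the *rsp-4* share 6.97% and 5.80%, each above both siblings, and the *rsp-5* share overlapped at 3.84% and 4.68%. In wild-type L2 larvae the shares were 27.5% and 29.7% for *rsp-1*, 19.2% and 16.2% for *rsp-7*, 15.7% and 18.1% for *rsp-5*, 14.8% and 16.98% for *rsp-6* and 6.78% and 10.4% for *rsp-4*. The L2 libraries hold total RNA and the L4 libraries polyadenylated RNA, and partly different transcripts are listed for the 2 stages. W02B12.3d of *rsp-1*, which has no coding sequence, is listed at L2 only, with a mean of 14.9% of the gene in wild type. Stage, library type and the set of listed transcripts therefore cannot be told apart in these levels. In *cer6* the *rsp-1* share was 40.1% and 35.5%, above both wild-type libraries, and the shares of *rsp-7* (16.1% and 12.9%), *rsp-5* (15.1% and 15.4%) and *rsp-4* (4.63% and 5.13%) lay below them. In *cer39* the shares of *rsp-6* (11.2% and 12.0%), *rsp-5* (9.85% and 13.6%) and *rsp-4* (4.91% and 4.32%) lay below wild type and that of *rsp-7* (19.9% and 21.6%) lay above. The shares of *rsp-6* in *cer6* (19.3% and 15.7%) and of *rsp-1* in *cer39* (27.7% and 26.0%) overlapped with wild type. Such separations were common. Over all genes, shares of single transcripts were apart for 3962 of 10571 in K718E. In *cer39* and *cer6* they were apart for 5372 and 5511 of 12207. The *rsp-4* shares at L4 came as near as 5.80% in K718E and 5.79% in a sibling library. At L2 the nearest shares of *rsp-7* were 16.1% in *cer6* and 16.2% in wild type, and those of *rsp-5* 15.4% and 15.7%. For *rsp-7* in *cer39* they were 19.9% and 19.2% in wild type. No transcript share of a member passed the limma test in any comparison. At an unadjusted p under 0.05 there were 1 of 21 in K718E, 2 of 23 in *cer39*, 4 of 23 in *cer6* and 5 of 23 between the mutants, where the shares over all transcripts were 6.99%, 10.9%, 13.5% and 11.4%. By the adjusted p, 0%, 0.0164%, 0.205% and 0.0655% of all shares tested passed. No count test was run on shares.

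**Figure D4:**
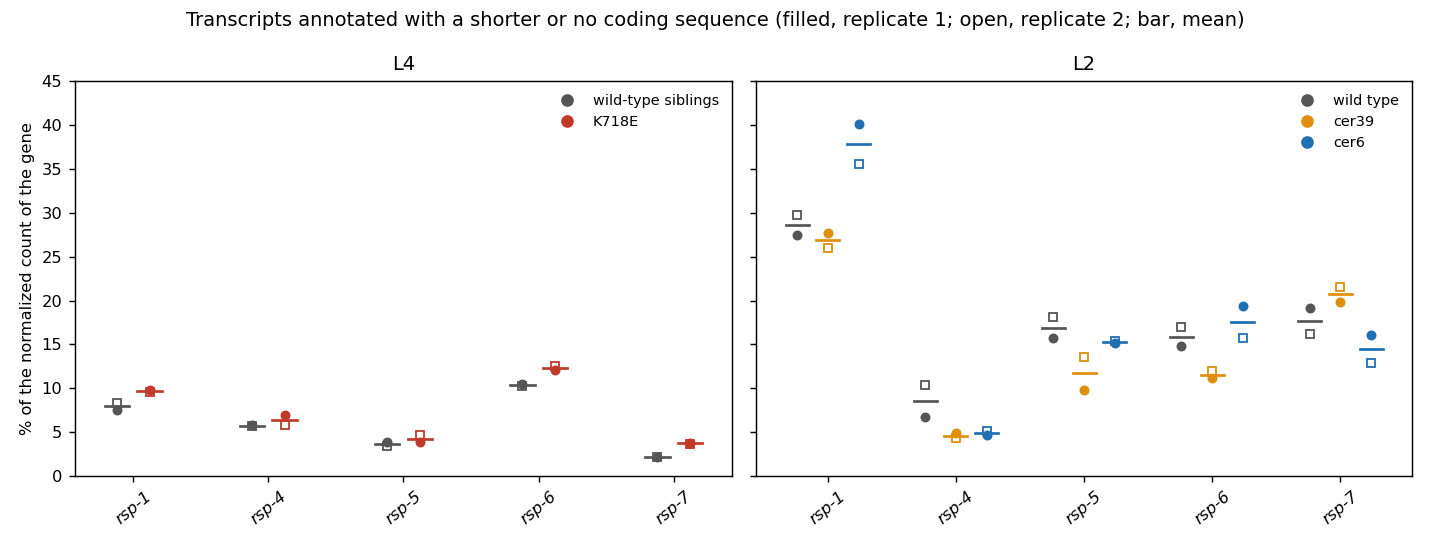
Percentage of the normalized count of each gene held by transcripts annotated with a shorter coding sequence or none, at L4 (left) and L2 (right), with filled circles for replicate 1, open squares for replicate 2 and a bar for the mean. The *cer6* points of *rsp-1* (40.1% and 35.5%) lie above the wild-type ones, and both mutants lie below wild type for *rsp-4*.

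In *cer6* the rise of *rsp-7* was called in its full-length form and in 1 early-stop form. D2089.1a, the full-length form, went from 1803 and 2069 in wild type to 3501 and 3397 in *cer39* and 5093 and 5289.9 in *cer6* (log2 change in *cer6* 1.43 ± 0.11, limma adjusted p = 0.00718). D2089.1b.1, which holds the 76 nt exon and the intron after it, went from 414 and 373 to 827 and 895 and 957 and 770.1 (in *cer6* 1.13 ± 0.16, limma adjusted p = 0.0177). The D2089.1a call held under all 15 alternatives, and the D2089.1b.1 call was lost with only the 4 libraries compared or without any 1 of the 6 (adjusted p = 0.0521 to 0.0744). D2089.1b.2, with the exon and without that intron, was read at 14.3 and 27.7, 40.0 and 39.3 and 20.0 and 16.2 in the 3 groups. In *cer39* neither of the first 2 passed (limma adjusted p = 0.0538 and 0.0578). Between the mutants D2089.1a was higher in *cer6* (0.59 ± 0.11, limma adjusted p = 0.0467), a call lost under a replicate block, in edgeR and without any 1 of the *cer39* and *cer6* libraries. At L4 the K718E libraries had 96.6 and 103 of D2089.1b.2 against 43.0 and 66.4 in the siblings (0.89 ± 0.31, limma adjusted p = 0.36).

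Among the full-length forms of the other members, the single *rsp-2* transcript repeats its gene value and was called as lower in *cer6* (limma adjusted p = 0.0328), a call lost in 8 of 15 alternatives, including under a replicate block and without any 1 of the 6 libraries (0.076 to 0.119). W02B12.3a of *rsp-1* was read at 1768 and 2067 in N2, 2296 and 2256 in *cer39* and 1283 and 1457 in *cer6*, and C33H5.12a of *rsp-6* at 2107 and 2099, 2967 and 2716 and 1537 and 1629. T28D9.2a of *rsp-5* stood at 1061 and 1112, 1789.6 and 1565 and 897 and 786 in the same groups. These 3 and W02B12.2 were lower in *cer6* than in *cer39*, with log2 changes of -0.73 ± 0.13, -0.84 ± 0.10, -0.99 ± 0.13 and -0.59 ± 0.10 (limma adjusted p = 0.0426, 0.0246, 0.0278 and 0.0363), and each lost its call without any 1 of the *cer39* and *cer6* libraries. EEED8.7a of *rsp-4* just missed (-0.49 ± 0.10, limma adjusted p = 0.0512). The early-stop forms EEED8.7b of *rsp-4* (128 and 207 in wild type, 112 and 98.3 in *cer39*, 77.2 and 82.2 in *cer6*) and T28D9.2b.1 of *rsp-5* (92.3 and 168, 109 and 113 and 49.0 and 47.5) were lowest in *cer6* without passing in limma (adjusted p = 0.0958 and 0.0695), and DESeq2 called both as lower in *cer6*, with 12.5% of all transcripts. *rsp-8* was split between C18D11.4a.1 and C18D11.4a.2. The share of the first was 37.2% and 45.6% in N2, 49.6% and 53.1% in *cer39* and 48.2% and 52.7% in *cer6*, and its test did not pass (limma adjusted p = 0.514 and 0.462). Over all tested transcripts of the family, limma called 0 of 22 in K718E, 0 of 24 in *cer39*, 5 of 24 in *cer6* (4 higher, 1 lower) and 6 of 24 between the mutants (2 higher, 4 lower), against 0.00888%, 0.943%, 14% and 7.63% of all transcripts. Split by direction, the last 3 of these backgrounds were 0.561% higher and 0.381% lower in *cer39*, 6.98% and 7.01% in *cer6*, and 3.6% and 4.03% between the mutants. For the comparisons with 0, an unadjusted p under 0.05 was reached by 3 and 7 transcripts, against 13.3% and 21.2% of all. edgeR called 0 in both, and DESeq2 called 1 as lower in K718E and 7 as higher in *cer39*, where 6.06% of all transcripts were called as higher.

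The splicing lists hold events that the authors selected by their own test, at 0.61% of the events detected in K718E, 5.88% in *cer39* and 6.9% in *cer6*, so the values of the 9 entries of the family are given as a description with no further test. Inclusion levels run from 0 to 1 and were recomputed per library, with the reads of each form divided by its effective length in these lists. Their intervals are 95% exact binomial ones and cover counting error only, and the order of the 2 libraries of a group in these lists is not given. In all 9 the mutant libraries lay on 1 side of the wild-type ones, and the selection used these same reads. The only entry for K718E was the 76 nt exon of *rsp-7*. It was included at 0.0733 (interval 0.0586 to 0.0905) and 0.0855 (0.0674 to 0.107) in the siblings and at 0.143 (interval 0.120 to 0.169) and 0.140 (0.116 to 0.167) in K718E, a difference of 0.062. This is the exon with which translation ends after 137 residues. The same exon was on the *cer6* list with the opposite sign. There it was included at 0.0821 (interval 0.0549 to 0.118) and 0.0679 (0.0424 to 0.103) in wild type and 0.0336 (interval 0.0230 to 0.0474) and 0.0168 (0.00917 to 0.0282) in *cer6*, a difference of -0.050. The *cer6* values rest on 32 of 489 and 14 of 421 reads for inclusion. The K718E list counts exon body reads as well as junction reads and the L2 lists count junction reads, and no test was made between the 2 stages.

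The 186 nt exon of *rsp-4* was on both L2 lists, against the same wild-type reads. Its inclusion was 0.128 (interval 0.0982 to 0.164) and 0.158 (0.123 to 0.200) in N2, 0.0825 and 0.0776 in *cer39* and 0.0795 and 0.0874 in *cer6*. The differences were -0.063 and -0.060, with the exon that brings the early stop used less in both mutants. The 163 nt exon of *rsp-5* was on the *cer39* list. Its inclusion was 0.114 (interval 0.0925 to 0.139) and 0.129 (0.107 to 0.154) in wild type and 0.0707 (interval 0.0595 to 0.0833) and 0.0857 (0.0717 to 0.102) in *cer39*, a difference of -0.043. The early 3′ splice site of the same stretch (267 nt, II, 6490720 to 6490986, which joins the exon and the intron behind it) was listed as well, with 0.102 and 0.0897 in wild type and 0.0568 and 0.0774 in *cer39*. This entry shares all its skipping reads with the exon above, so these are not 2 independent events. In *cer6* the entries of *rsp-5* and *rsp-1* were retained introns. The intron behind the alternative exon of *rsp-5* (II, 6490883 to 6490986) was retained at 0.498 (interval 0.371 to 0.631) and 0.261 (0.176 to 0.367) in wild type and 0.631 (interval 0.479 to 0.774) and 0.668 (0.501 to 0.817) in *cer6*, a difference of 0.270. These levels rest on as few as 58 reads in a library, and the 2 wild-type values were farther apart than the higher of them was from *cer6*. The skipping reads of this entry join the alternative exon to the next exon. RNA that skips the alternative exon is counted on neither side, so the levels are not shares of all *rsp-5* RNA. The intron of 103 nt in *rsp-1* (II, 11454922 to 11455024) was retained at 0.398 and 0.443 in wild type and 0.715 (interval 0.616 to 0.804) and 0.580 (0.466 to 0.693) in *cer6*, a difference of 0.227. The intron of 511 nt that contains it and the alternative exon (II, 11454514 to 11455024) was retained at 0.0965 and 0.102 in wild type and 0.158 (interval 0.139 to 0.179) and 0.131 (0.113 to 0.151) in *cer6*, a difference of 0.045. The annotated transcript that holds the whole of it, W02B12.3d, has no coding sequence. The 2 *rsp-1* stretches overlap and end at the same position, so these are not 2 independent events. For the 103 nt intron, the skipping reads (28 and 36 in wild type, 23 and 25 in *cer6*) join the alternative exon to the next exon. The 511 nt entry had 339 and 354 skipping reads in wild type. The levels of the 103 nt intron are therefore not shares of all *rsp-1* RNA. Set beside the transcript values, the 2 *rsp-1* entries were read with a larger pooled share of non-full-length *rsp-1* forms in *cer6*. W02B12.3b.2, which holds the 103 nt intron, had mean shares of 5.01% in N2 and 5.03% in *cer6*. W02B12.3b.1, annotated without that intron, had 1.33% and 4.89%. W02B12.3d stood at 15.3% and 14.4% in N2 and 22.6% and 15.8% in *cer6*. For *rsp-5* the intron retained more in *cer6* went with a pooled share below wild type. There T28D9.2b.2, which holds it, had mean shares of 7.05% in N2 and 10.4% in *cer6*, and T28D9.2b.1 9.86% and 4.87%. The *rsp-4* exon was read with a smaller EEED8.7b share (6.78% and 10.4% in N2, 4.91% and 4.32% in *cer39* and 4.63% and 5.13% in *cer6*). Event and transcript values come from the same libraries, so this is not separate evidence. *rsp-2*, *rsp-3*, *rsp-6* and *rsp-8* had no entry in the 3 lists.

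**Figure D5:**
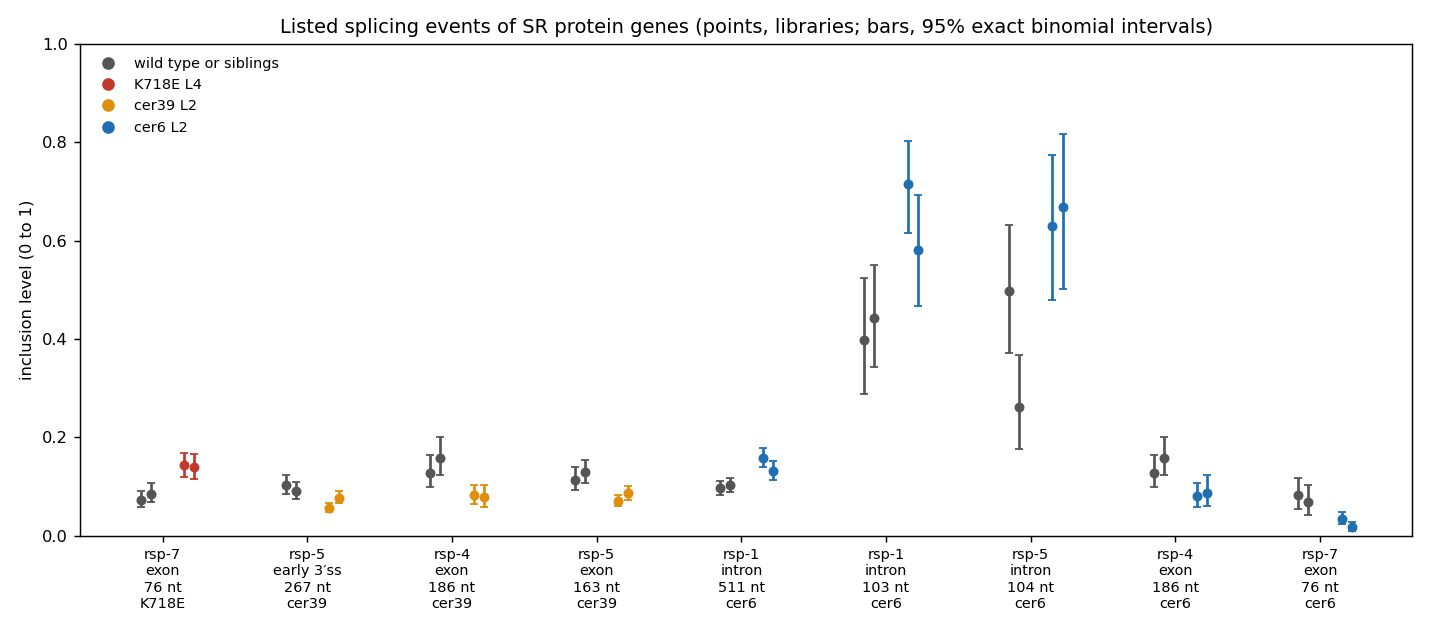
Inclusion level of each listed event of the SR protein genes in the wild-type or sibling libraries (grey) and the mutant libraries (coloured), with 95% exact binomial intervals. The 3 introns in *cer6* and the *rsp-7* exon in K718E lie above the controls, and the *rsp-4*, *rsp-5* and *cer6* *rsp-7* exon entries lie below them.

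18 genes that act with SR proteins were read beside the family. They are the SR protein kinase gene *spk-1*, the SR-related genes *rsr-1* and *rsr-2*, *rnp-7* (U1-70K), *uaf-1* and *uaf-2* (U2AF subunits), 5 hnRNP genes and 7 *smg* genes of nonsense-mediated decay. In K718E 0 of the 18 passed in limma, in *cer39* 1 rose and 1 fell, in *cer6* 3 rose and 2 fell, and between the mutants 4 were higher and 1 was lower in *cer6*, beside the shares of all genes given above (0.398%, 7.15%, 27.6% and 19.6%). The medians were -0.06, -0.14, -0.15 and 0.19. *rsr-2*, the homolog of the human SR-related matrix protein SRRM2, showed the pattern of *rsp-7*. It stood at 1298 and 1529 in N2, 2818 and 2696 in *cer39* and 4091 and 3977 in *cer6*, with log2 changes of 0.97 ± 0.12 (limma adjusted p = 0.0198) and 1.52 ± 0.12 (adjusted p = 0.00207). *uaf-2*, the small U2AF subunit that contacts the 3′ splice site, rose in *cer6* from 1574 and 1876 to 3498 and 3449 (1.01 ± 0.12, limma adjusted p = 0.00449), with 2493 and 2359 in *cer39*. *smg-7* also rose in *cer6* (0.49 ± 0.11, limma adjusted p = 0.0296), while *rsr-1* (-0.73 ± 0.20, adjusted p = 0.0469) and *hrpk-1*, an hnRNP K gene (-0.78 ± 0.11, adjusted p = 0.00764), fell. *smg-1*, the kinase gene of the decay pathway, fell in *cer39* (-0.63 ± 0.12, limma adjusted p = 0.0421). *spk-1* passed in no comparison, with 8312 and 11182 in N2, 8019.5 and 6988 in *cer39* and 7828 and 9186 in *cer6*.

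Across the 10 libraries, with each value taken relative to the wild-type mean of its own stage, the members other than *rsp-8* showed 2 main patterns. The correlations are a description, since the libraries come from 5 groups and share their depth scaling. *rsp-4*, *rsp-5* and *rsp-6* followed each other most closely (Pearson r = 0.981, 0.982 and 0.978), and *rsp-1* and *rsp-2* were at 0.941 and 0.893 with *rsp-6*. *rsp-3* and *rsp-7* were at 0.910 with each other, while *rsp-7* was at -0.529 with *rsp-2* and -0.126 with *rsp-6*. *rsp-8* followed no other member, with r from -0.225 (*rsp-5*) to 0.117 (*rsp-1*). Among 10109 genes with a mean of at least 100 in both tables, the 2 whose values followed *rsp-7* most closely were *rsr-2* (r = 0.999) and *eftu-2* (r = 0.999), the second being the gene of a U5 snRNP GTPase. 303 genes reached an r of 0.95 with *rsp-7*. For the other members that number was 81 for *rsp-2*, 50 for *rsp-3*, 26 for *rsp-4*, 25 for *rsp-5* and *rsp-6*, 7 for *rsp-1* and 4 for *rsp-8*. The closest to *rsp-3* were *H20J04.6* (r = 0.993) and *sna-1* (r = 0.986), and the closest to *rsp-2* were *set-4* (r = 0.988) and *perm-3* (r = 0.985). *rsp-4* was followed by *cyp-33E1* (r = 0.983) and *zipt-2.4* (r = 0.983), *rsp-5* by *F10C1.9* (r = 0.989) and *tric-1B.2* (r = 0.988), and *rsp-6* by *manf-1* (r = 0.989) and *tric-1B.2* (r = 0.987). For *rsp-1* they were *emc-2* (r = 0.963) and *C01G10.10* (r = 0.961), and for *rsp-8* *ero-1* (r = 0.973), the gene of an oxidoreductase of the endoplasmic reticulum, and *scyl-1* (r = 0.968).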

How the data were processed

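Libraries were paired-end and strand-specific. By the study's methods, the authors aligned reads with STAR to WBcel235, estimated transcript counts with RSEM, normalized them with DESeq2 and called splicing events with rMATS, with tool versions not given in the sources used here. Deposited expression values (signal) are normalized counts per transcript, and 100% of those above 0 were whole multiples (within 0.1) of what 1 read is worth in that library. The deposited event tables give inclusion and skipping read counts, and the authors' own fold changes, p-values and FDR in the other columns were not used. Genes were sums over transcripts, matched by gene identifier, and 1 L2 row without a value in every library was left out. Features averaging at least 10 over the libraries of a fit entered limma 3.58.1 (R 4.3.3) with a trend on log2(value + 1), so folds are on that scale, and p-values were adjusted (Benjamini-Hochberg) across every feature tested. The 4 L4 libraries were fitted alone and the 6 L2 libraries together. Alternatives included edgeR 4.0.16 and DESeq2 1.42.0 on the reads recovered this way, and edgeR with TMM scaling called 57, 1101, 4110 and 2988 genes in K718E, *cer39*, *cer6* and between the mutants, against 63, 1074, 4142 and 2946 by limma. The other alternatives were the pseudocount (0.5 or 5), the filter (50 or none), TMM factors, a replicate block, a fit of just the 4 libraries in a comparison, and each library left out in turn. Same-numbered L4 libraries come from the same outcross. The correlation of their deviations from the group means was -0.10, so the crossed pairing was added after seeing the data. L2 replicates share only a number, and where the labels name no separate cultures the p-values measure the spread between these libraries. Levels per kb used transcript lengths of Ensembl release 115, with the longest annotated transcript of the gene standing in for unmatched ones. The test was run on simulated counts, with the same replicate variability set for every gene and larger changes than most members showed. That checks the code and gives no measure of how reliable the calls here are. The text names all 8 members with their transcripts and events, the partner genes, *sftb-1* and, for each member, the 2 genes most like it, and these members and lists were chosen with earlier results of these data known.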

Additional observations from a re-analysis of the deposited data

How the results depend on the processing

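The direction of every gene call on a member was the same under all 16 alternatives, and so was that of every transcript call under all 15, while the side of the threshold often was not. Under a replicate block the number of members called as higher was 1 in *cer39* and 1 in *cer6* (2 and 2 without it), the number called as lower in *cer6* was 1 (2 without it), and between the mutants 0 were higher and 3 lower (1 and 5 without it). Over all genes the block called 331 higher in *cer39* and 1776 higher and 1717 lower in *cer6* (618, 2067 and 2075 without it). Between the mutants it called 1041 genes higher and 1174 lower (1367 and 1579 without it). For transcripts under the block, 0 were lower in *cer6* and 0 higher and 0 lower between the mutants. In K718E the replicate block, in the labelled or in the crossed pairing, left 0 members called. Over all genes these 2 fits called 625 and 217, against 63 without a block. L2 numbers do not pair the libraries by any label, and correlations of deviations ran from -0.17 to 0.12. With only the 4 libraries compared, 1 gene was higher in *cer39* and 1 higher and 0 lower in *cer6*, and 0 transcripts were lower in *cer6*. Over all genes the same fits called 278 higher in *cer39* and 1317 higher and 1156 lower in *cer6*. edgeR with TMM scaling and TMM factors before limma each called 1 gene as lower in *cer6* and added *rsp-5* as higher in *cer39*. edgeR with TMM or RLE scaling called 0 transcripts as higher between the mutants. DESeq2 called 4 genes and 7 transcripts as higher in *cer39*, 5 transcripts as lower in *cer6* and 1 transcript as lower in K718E. It also called the gene *rsp-5* as lower in *cer6*, which limma did not. Over all genes it called 881 in K718E and 2572 in *cer39*, where limma called 63 and 1074, and the cause was not tested. A pseudocount of 5, a mean of at least 50 and no filter each called 1 transcript as higher in *cer39*. Over the fits without 1 library, 0 to 2 genes were called lower in K718E (2 only without K718E replicate 2, when 17% of all genes were), 0 to 1 higher in *cer39*, 1 higher and 0 to 1 lower in *cer6*, and 0 to 1 higher and 0 to 5 lower between the mutants. For transcripts these ranges were 2 to 3 higher and 0 lower in *cer6*, and 0 to 2 higher and 0 to 3 lower between the mutants. A fit without 1 library has fewer residual degrees of freedom and assumes that the lone library varies like the others. The only sign changes among the 8 genes and the called transcripts were 10 for *rsp-8*, which was called nowhere. In K718E its log2 change was -0.00, 0.020 with edgeR and TMM scaling, 0.011 with RLE scaling, 0.011 with DESeq2, 0.018 with TMM factors, and -0.092 to 0.086 over the fits without 1 library. Without 1 library at L2 it ran from -0.33 to 0.15 in *cer39*, from -0.22 to 0.27 in *cer6* and from -0.044 to 0.27 between the mutants. Inclusion differences of the 9 events kept their sign in all 54 alternatives. Only dropping the division by form length moved them by more than the replicate spread, in 7 events, and no event difference was moved by leaving out a library by more than that spread. The 2 libraries per group limit every test, and the retained introns rest on as few as 58 reads in a library.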
